A study of Rattus norvegicus with 14 samples.

Results

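Cadherins and catenins were followed in CA3, a hippocampal subfield of densely interconnected pyramidal neurons, in rats that had or had not just encoded a new place. The genes were Cdh2, Cdh8, Cdh10, Cdh13, Ctnnb1, Ctnna2 and Ctnnd2, and their members were all probe sets whose platform annotation names one of these 7 genes alone. Of the 15923 probe sets on the array 10 met this, from 4 of the 10412 genes that single-gene probe sets name: 4 of Ctnnb1, 3 of Cdh13, 2 of Cdh2 and 1 of Ctnna2. The annotation used here names no probe set for Cdh8, Cdh10 or Ctnnd2, so those 3 genes were not analysed here. A probe set is a group of short oligonucleotides designed to measure a stretch of a transcript, and some probe sets can match several transcripts. The probe sequences were not used here.

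All 14 animals were male Long-Evans rats of 3 to 4 months with no genetic alteration named in the labels, and all had learned a standard water maze 2 to 3 weeks earlier. The 7 rats of the learning group then had 8 trials at intervals of 8 min in another maze, with spatial cues and a visible platform that kept its place. The 7 rats of the control group swam as many trials with a visible platform that was moved and without informative cues. Tissue was taken after a probe trial of 90 s, 1 h later, and each animal gave 1 Affymetrix RAE230A array. The question was which CA3 transcripts change when a new place is rapidly encoded. Cues, a fixed platform and encoding came together and cannot be told apart.

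Classical cadherins are adhesion proteins that span the membrane and, in the presence of calcium, bind the same cadherin on the neighbouring cell. Their cytoplasmic tail holds beta-catenin, which binds alpha-catenin and through it actin, while delta-catenin holds the tail near the membrane. At brain synapses this complex joins the presynaptic and postsynaptic sides, and N-cadherin, the product of Cdh2, is known from work in rodents to be needed for lasting potentiation. Beta-catenin that is not bound to cadherin is marked for destruction by a complex of Apc, axin and kinases, or carries Wnt signals to the nucleus.

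Values are log2 levels, on which 1 unit is a doubling of signal. Probe sets differ in affinity, so a level is compared between animals and never between probe sets. A probe set was tested if its mean level reached the 40th percentile of the array, a log2 level of 3.88, and it was called if its limma p-value, adjusted by Benjamini-Hochberg over all 9520 tested probe sets, was under 0.05. "Rose" and "fell" are used for called probe sets only. In whole tissue, fewer cells of a type and less RNA per cell cannot be told apart.

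Before the members are described, some arrays and signals stood apart. Control replicate 5 and learning replicates 4 and 6 had the lowest mean correlation with the other arrays, and each tested member probe set is given with and without these 3. The log2 ratio of 3' to 5' Gapdh signal, a sign of RNA integrity, averaged 0.45 ± 0.05 in learning arrays and 0.51 ± 0.06 in control arrays (SD, n = 7 each, two-sided exact permutation p = 0.0443). For hexokinase this ratio averaged 1.30 ± 0.05 in learning and 1.53 ± 0.49 in control arrays (n = 7 each, exact permutation p = 0.281). For beta-actin it averaged 1.31 ± 0.03 in learning and 1.36 ± 0.15 in control arrays (n = 7 each, exact permutation p = 0.460). Among these ratios only that of Gapdh was shown to differ between the groups. Spike-in probe sets averaged 9.19 ± 0.17 in learning arrays and 8.99 ± 0.12 in control arrays (n = 7 each, exact permutation p = 0.00524). Dimmer probe sets of a gene lay closer to their brightest partner in the learning group: over 349 genes the gap averaged -3.25 ± 0.03 in learning and -3.42 ± 0.11 in control arrays (n = 7 each, exact permutation p = 5.83e-04, the smallest that 3432 assignments can give). The Gapdh ratio, the spike-in level and this gap moved with the group. The part of all these measures in the results below was tested only as covariates in the fit.

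N-cadherin transcript was the one member signal that rose. At Cdh2 probe set 1387259_at the 7 learning animals ran from a log2 level of 7.59 over a median of 7.72 to 7.90, and the 7 control animals from 7.14 over a median of 7.46 to 7.54. The groups did not overlap, since the lowest learning animal lay above the highest control animal. The group means were 7.73 ± 0.11 in learning and 7.41 ± 0.15 in control animals (SD, n = 7 each), a log2 fold change of 0.32 (SE 0.07, 95% interval 0.17 to 0.46) or 1.24-fold (limma adjusted p = 0.0200). It was 1 call among 9 tested member probe sets, while 3.35% of all tested probe sets were called, 2.55% as higher and 0.798% as lower. Groups that did not overlap, with learning higher, were found at 1.73% of all tested probe sets, and at 2.1% in either direction.

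The brighter Cdh2 probe set, 1368642_at, was not called. Its log2 levels ran from 8.43 over a median of 8.56 to 8.81 in learning animals and from 8.33 over 8.55 to 8.62 in control animals. The groups overlapped, with 3 learning animals above the highest control animal and 1 control animal below the lowest learning animal. The log2 fold change was 0.09 (SE 0.06, 95% interval -0.04 to 0.22, adjusted p = 0.435), and 0.04 without the 3 arrays that stood apart (adjusted p = 0.789). The annotation gives the same transcript record for both Cdh2 probe sets. Which stretch of the N-cadherin transcript or its variants each of them measures was not determined.

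Whether the Cdh2 probe sets differed in their response was tested on the gap between them in each animal. The dimmer minus the brighter probe set was -0.88 ± 0.08 in learning and -1.10 ± 0.19 in control animals (n = 7 each). The gap changed by 0.22 (SE 0.08, 95% interval 0.06 to 0.39), which did not pass (limma adjusted p = 0.0614 over 1130 such gaps in 942 genes), nor did it without the 3 arrays (0.20, adjusted p = 0.0708). Without control replicate 1 it passed (0.27, adjusted p = 0.0214). With all 14 arrays the response of one Cdh2 probe set was therefore not shown to differ from that of the other. Over all gaps 17.6% were called, 14.7% upward, and the median change was 0.09.

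The Cdh2 call did not hold under every setting. It ended without the 3 arrays that stood apart (log2 fold change 0.24, adjusted p = 0.0949), and when the fit took as covariate the Gapdh ratio (0.25, adjusted p = 0.141), the spike-in level (0.26, adjusted p = 0.127) or the probe set balance (0.16, adjusted p = 0.631).

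**Figure D1:**
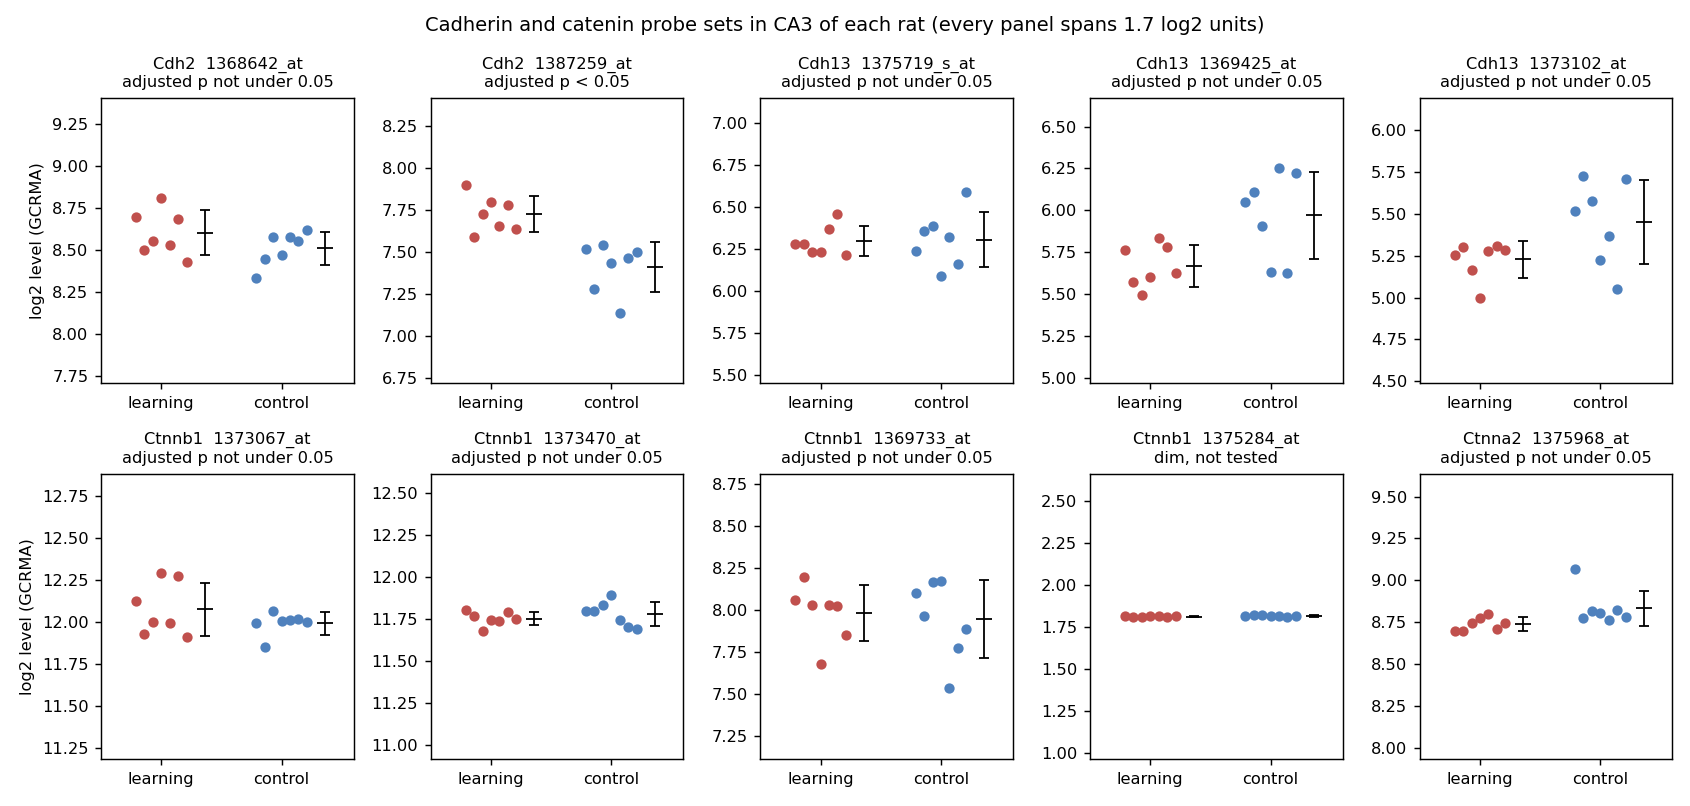
Log2 level (vertical axis, GCRMA) of each cadherin and catenin probe set in the 7 learning (red) and 7 control (blue) animals, with the group mean and SD as black bars, every panel spanning the same range of log2 units. Cdh2 1387259_at is the panel without overlap, with learning animals from 7.59 upward and control animals up to 7.54.

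Cdh13 encodes T-cadherin, which lacks the cytoplasmic tail of classical cadherins and is held in the membrane by a lipid anchor, so it does not bind catenins directly. None of its 3 probe sets was called by limma, though at an unadjusted p under 0.05 there were 2, both lower in the learning group, as were 10.6% of all tested probe sets. At 1369425_at learning animals ran from 5.49 over a median of 5.63 to 5.84, and control animals from 5.63 over 6.05 to 6.25. All 7 learning animals lay below the control mean of 5.97, but the groups overlapped because the 2 lowest control animals, replicates 4 and 6, lay near 5.63. The log2 fold change was -0.30 (SE 0.10, 95% interval -0.52 to -0.09, adjusted p = 0.109). It passed without control replicate 6 (-0.36, adjusted p = 0.0476) and with the level of dentate markers as covariate (-0.22, adjusted p = 0.0317), and did not under the other 27 of the 29 settings that tested it. Among these the value was -0.12 with the probe set balance in the fit (adjusted p = 0.845), -0.26 with the Gapdh ratio (adjusted p = 0.357) and -0.27 without the 3 arrays that stood apart (adjusted p = 0.301).

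Probe set 1373102_at of Cdh13 had the same sign. Its log2 levels ran from 5.0 over a median of 5.28 to 5.31 in learning animals and from 5.05 over 5.51 to 5.73 in control animals. All 7 learning animals were again below the control mean, and 5 control animals lay above the highest learning animal. The log2 fold change was -0.23 (SE 0.10, 95% interval -0.43 to -0.02, adjusted p = 0.204), and without the 3 arrays it was -0.21 (adjusted p = 0.415).

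At the brightest Cdh13 probe set, 1375719_s_at, the groups were close. The suffix s marks a set whose probes can match several transcripts. Its log2 levels ran from 6.21 over a median of 6.28 to 6.46 in learning animals and from 6.09 over 6.32 to 6.59 in control animals. The learning animals lay wholly inside the control range, and the log2 fold change was -0.01 (SE 0.07, 95% interval -0.15 to 0.13, adjusted p = 0.951), or -0.03 without the 3 arrays (adjusted p = 0.908).

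The gap between Cdh13 probe sets itself passed a test at one of them. The gap of 1369425_at to 1375719_s_at was -0.62 ± 0.08 in learning and -0.33 ± 0.17 in control animals (n = 7 each), a change of -0.29 (SE 0.08, limma adjusted p = 0.0160). Downward calls made up 2.92% of all gaps. For 1373102_at the gap was -1.07 ± 0.10 in learning and -0.85 ± 0.16 in control animals (n = 7 each), a change of -0.21 that did not pass (adjusted p = 0.0591). It passed without control replicate 6 (-0.26, adjusted p = 0.0211) and with the actin ratio in the fit (-0.23, adjusted p = 0.04995). With all arrays in the fit, the group difference thus differed between 1369425_at and 1375719_s_at, though neither probe set was itself called. The second can match several transcripts, and which probe set follows the gene's whole transcript level was not tested. The first gap was not called without the 3 arrays that stood apart (-0.24, adjusted p = 0.0664), and neither with the Gapdh ratio in the fit (-0.23, adjusted p = 0.137) nor with the probe set balance (-0.11, adjusted p = 0.650).

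**Figure D2:**
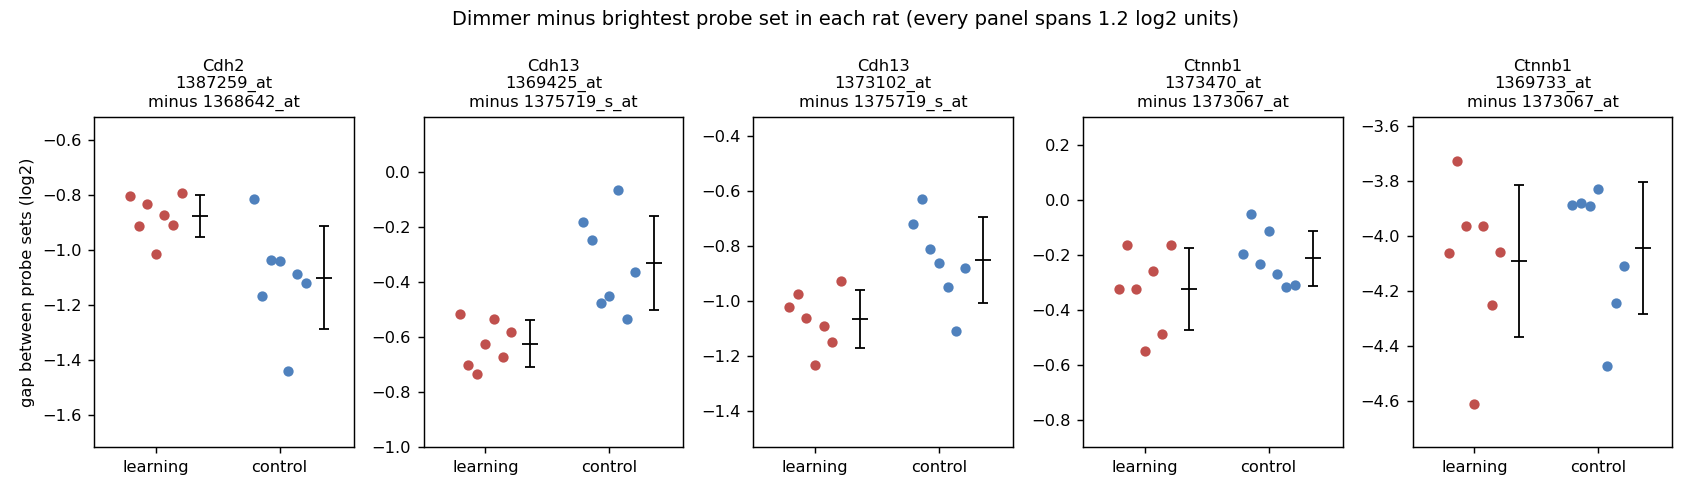
Gap between a dimmer and the brightest probe set of the same gene (vertical axis, log2) in the 7 learning (red) and 7 control (blue) animals, with mean and SD as black bars. The Cdh13 gap of 1369425_at averaged -0.62 in learning and -0.33 in control animals, and the Cdh2 gap averaged -0.88 in learning and -1.10 in control animals.

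Beta-catenin, the product of Ctnnb1, links cadherin tails to alpha-catenin and is the messenger of Wnt signals. Its 3 tested probe sets gave no call. The brightest, 1373067_at, ran from 11.91 over a median of 12.00 to 12.29 in learning animals and from 11.85 over 12.00 to 12.06 in control animals. The medians were level, and 3 learning animals, replicates 1, 4 and 6, lay above all control animals. The log2 fold change was 0.08 (SE 0.06, 95% interval -0.05 to 0.22, adjusted p = 0.492). Learning replicates 4 and 6 are among the 3 arrays that stood apart, and without those 3 the log2 fold change was 0.0033 (adjusted p = 0.985).

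The second Ctnnb1 probe set, 1373470_at, had the smallest SE of the tested members, 0.04. Its levels ran from 11.68 over a median of 11.75 to 11.80 in learning animals and from 11.69 over 11.80 to 11.89 in control animals. The groups overlapped, and the log2 fold change was -0.03 (95% interval -0.11 to 0.05, adjusted p = 0.717). At 1369733_at levels ran from 7.68 over 8.03 to 8.20 in learning animals and from 7.54 over 7.97 to 8.17 in control animals, with a log2 fold change of 0.04 (95% interval -0.18 to 0.25, adjusted p = 0.878). Without the 3 arrays 1373470_at had -0.04 (adjusted p = 0.720) and 1369733_at had 0.02 (adjusted p = 0.935).

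The remaining Ctnnb1 probe set, 1375284_at, was dim and was not tested. It lay between 1.81 and 1.82 in all 14 animals, below the level of 3.88 set for testing, and it is not shown to measure the transcript. Neither gap between tested Ctnnb1 probe sets was called: the gap of 1373470_at to 1373067_at changed by -0.11 (adjusted p = 0.288) and that of 1369733_at by -0.05 (adjusted p = 0.836).

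Alpha-N-catenin, the product of Ctnna2, is the neuronal alpha-catenin that ties the complex to actin and is known in mice to stabilise dendritic spines. Its probe set 1375968_at ran from 8.70 over a median of 8.74 to 8.80 in learning animals and from 8.77 over 8.80 to 9.07 in control animals. All 7 learning animals lay below the control mean of 8.83, and the highest value was that of control replicate 1. The log2 fold change was -0.09 (SE 0.04, 95% interval -0.19 to 0.00072) and was not called (adjusted p = 0.255). Without control replicate 1 the groups differed by -0.06 (adjusted p = 0.334), and without the 3 arrays that stood apart by -0.11 (adjusted p = 0.385).

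Over the 9 tested member probe sets, 4 had a fold change above 0 and 5 below, with a median log2 fold change of -0.01. Over all tested probe sets the median was -0.02, and 42% lay above 0. At an unadjusted p under 0.05 were 3 of the 9, against 19.9% of all tested probe sets. The plot of fold changes sets the members side by side: the interval of 1 probe set lay wholly above 0 and those of 2 lay wholly below.

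**Figure D3:**
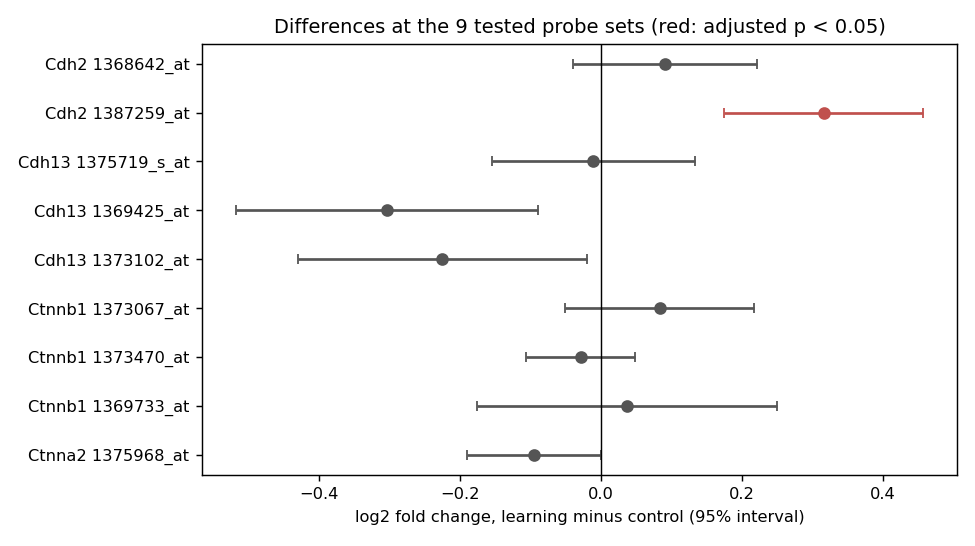
Log2 fold change, learning minus control (horizontal axis), with its 95% interval, of the 9 tested cadherin and catenin probe sets. Cdh2 1387259_at, in red, is the called one at 0.32, and Cdh13 1369425_at is the lowest at -0.30.

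The genes whose levels followed each of the 4 member genes most closely were found by Pearson correlation over the 14 arrays after the group means were taken off, as a description. Each gene was taken at 1 probe set, the called one for Cdh2 and the brightest for the others, which have none called. For Cdh2 1387259_at they were Edem1 (r = 0.86), the histone demethylase Kdm6b (0.84) and the metabotropic glutamate receptor Grm7 (0.83). For Cdh13 1375719_s_at they were Smad3 (0.85), a signal carrier of the TGF-beta pathway, the microtubule end protein Mapre1 (0.84) and the mitochondrial ribosomal protein Mrps22 (0.82). For Ctnnb1 1373067_at they were Sash1 (0.91), the taurine transporter Slc6a6 (0.89) and the AMPA receptor subunit Gria2 (0.88). For Ctnna2 1375968_at they were the membrane skeleton protein Epb41 (0.92), the transcription factor Cux1 (0.91) and the potassium channel subunit Kcnj9 (0.90). The genes named were picked as the highest over all tested probe sets of other genes, and their correlations were not tested against chance. These arrays share the differences in Gapdh ratio and spike-in level given above.

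Other cadherins were set beside the members. Of 28 listed genes 17 were on the array and 8 were tested, of which 1 rose. Among all tested probe sets 2.55% rose. At an unadjusted p under 0.05 were 3 of the 8, all higher in the learning group. Clstn2, a calsyntenin of the postsynaptic membrane with cadherin repeats, averaged 8.50 ± 0.17 in learning and 8.04 ± 0.27 in control animals (n = 7 each), a log2 fold change of 0.46 (limma adjusted p = 0.0366). Its groups overlapped, and its call was not followed under the other settings used for Cdh2. The other genes of the list did not pass, with 0.15 for Cdh11 (adjusted p = 0.206), 0.09 for Clstn3, 0.41 for Cdh22 (adjusted p = 0.292) and -0.04 for Clstn1. The median log2 fold change of the list was 0.07. Of 3 tested protocadherins, a related family with weaker adhesion, 0 were called by limma and 2 had an unadjusted p under 0.05. Such a p-value was found at 19.9% of all tested probe sets. Pcdha13 had a log2 fold change of 0.18 (adjusted p = 0.141), Pcdh17 -0.22 (adjusted p = 0.162) and Pcdh8, an activity-regulated member also called arcadlin, 0.09 (adjusted p = 0.583).

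Other catenins and related armadillo proteins gave 0 calls by limma among 9 tested genes, with 3 at an unadjusted p under 0.05, all lower in the learning group. Of all tested probe sets, counted by probe set and not by gene, 19.9% had such a p-value, 10.6% as lower. Ctnna1, the alpha-catenin found in most tissues, had a log2 fold change of -0.15 (adjusted p = 0.163), and Jup, which encodes plakoglobin, the closest relative of beta-catenin, had -0.18 (adjusted p = 0.183). Ctnnbip1, an inhibitor that keeps beta-catenin from its nuclear partners, had -0.12 at one probe set (adjusted p = 0.216), and Pkp4 had -0.06. Of the 10 probe sets in this list 1 had a fold change above 0, against 42% of all tested probe sets, and the median was -0.06.

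Among 24 tested junction adaptors and regulators of cadherin adhesion 0 were called by limma, and 6 had an unadjusted p under 0.05, 5 higher and 1 lower. Over all tested probe sets the share at such a p-value was 19.9%. That share counts probe sets, while a gene is counted here if any of its probe sets passed. Genes with several probe sets had more chances, so the shares are not directly comparable. The receptor phosphatase Ptprf had -0.20 (adjusted p = 0.0739), the tyrosine kinase Fyn 0.23 (adjusted p = 0.0904) and Adam10, the protease that cuts N-cadherin at the cell surface, 0.27 (adjusted p = 0.137). At its brighter probe set Ptprf had -0.13 (adjusted p = 0.181), and at its dimmer one Fyn had 0.05 (adjusted p = 0.631). The small GTPases Rac1 and Cdc42 had -0.0035 and 0.05 at their brightest probe sets. At its dimmer probe set Rac1 had 0.18, with an unadjusted p under 0.05 (adjusted p = 0.235). The list's median log2 fold change over 35 probe sets was 0.04.

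In the list of beta-catenin destruction and Wnt signalling 3 of 26 tested genes rose, 0 fell and 23 were not called. By probe set 4 of 35 rose, against 2.55% of all tested probe sets. Csnk1a1, the casein kinase that places the first mark on beta-catenin for its destruction, rose at both of its tested probe sets. At 1374646_at it averaged 10.42 ± 0.03 in learning and 10.22 ± 0.03 in control animals (n = 7 each), with groups that did not overlap and a log2 fold change of 0.20 (limma adjusted p = 0.00323). At 1369312_a_at it averaged 8.33 ± 0.09 in learning and 7.88 ± 0.18 in control animals (n = 7 each), a log2 fold change of 0.45 (adjusted p = 0.00453), which was not called with the Gapdh ratio in the fit (0.43, adjusted p = 0.0512). Apc, the scaffold of the destruction complex, rose at 1387837_at, with 6.98 ± 0.11 in learning and 6.53 ± 0.17 in control animals (n = 7 each) and a log2 fold change of 0.45 (adjusted p = 0.00453). At its brighter probe set, 1376629_at, Apc had 0.13 (adjusted p = 0.184).

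The third called gene of that list, Tcf4, is a basic helix-loop-helix factor and not the TCF of Wnt signalling that once shared its name, which is Tcf7l2. Tcf4 rose by a log2 fold change of 0.26 at 1368841_at (adjusted p = 0.00323) and had -0.01 at its brighter probe set, while Tcf7l2 had -0.21 (adjusted p = 0.143). Without Tcf4 the list had 2 called genes of 25. Gsk3b, the kinase that completes the marking of beta-catenin, had 0.18 (adjusted p = 0.0796), Axin1 had 0.0018 and the bright secreted protein Dkk3 had 0.09 (adjusted p = 0.336). The median over the 35 probe sets of the list was 0.0018. With the probe set balance as covariate 0 of the 3 genes were called by limma, and 5 of the list had an unadjusted p under 0.05. The log2 fold changes in that fit were 0.17 at Csnk1a1 1374646_at, 0.24 at Csnk1a1 1369312_a_at, 0.28 at Tcf4 1368841_at and 0.24 at Apc 1387837_at, with adjusted p-values from 0.281 to 0.446.

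**Figure D4:**
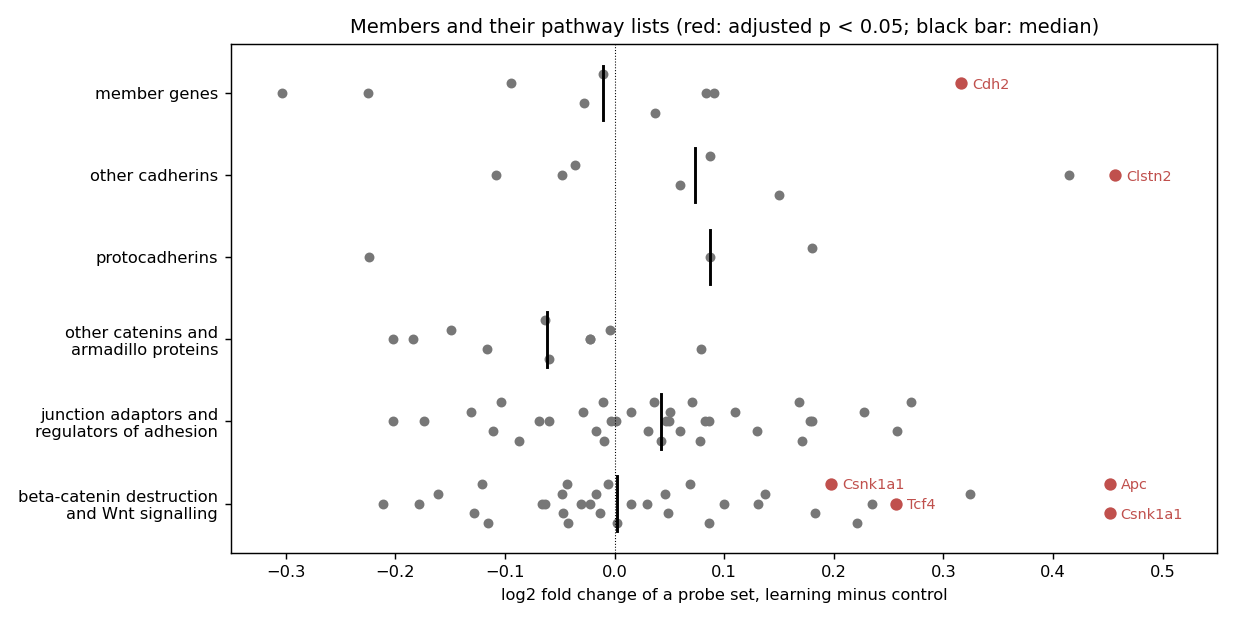
Log2 fold change, learning minus control (horizontal axis), of each tested probe set of the member genes and of the lists of related genes, with called probe sets in red and named, and the median of each row as a black bar. The called ones are Cdh2, Clstn2, Apc, Tcf4 and, at both its probe sets, Csnk1a1, all above 0.

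Markers of the cells that CA3 tissue can hold were measured beside these genes. Over all tested probe sets 3.35% were called and 19.9% had an unadjusted p under 0.05. Marker genes are counted below if any of their probe sets passed, so their shares are not directly comparable with these. CA3 markers were present, with Chgb at 11.58 in learning and 11.50 in control animals, Grik4 at 7.94 in learning and 7.95 in control animals, and Bok with a log2 fold change of 0.01. Of 5 tested CA3 markers 0 were called by limma, and 1, Rasgrf2, had an unadjusted p under 0.05, with a log2 fold change of 0.64 (adjusted p = 0.0557). Prss35 had the lowest value, -0.99, with an SE of 1.04. CA1 markers (5 tested, among them Wfs1 with a log2 fold change of -0.06 and Mpped1 with -0.11) had 0 calls by limma, and 1, Dcn, at an unadjusted p under 0.05 (-0.25). Of 6 dentate markers on the array 2 were tested, Calb1 at -0.11 and Prox1 at -0.20, and the others were dim. Neither of these 2 had an unadjusted p under 0.05.

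Interneuron, oligodendrocyte, microglial and vascular markers had 0 calls by limma among 9, 7, 7 and 6 tested genes. Fold changes above 0 were found at 2 of 10 interneuron and 5 of 12 oligodendrocyte probe sets. They were found at 2 of 7 microglial and 3 of 7 vascular probe sets, against 42% of all tested. Summed over the brightest probe sets, the interneuron level ran from 11.58 to 11.82 in learning and from 11.69 to 11.99 in control animals. By exact permutation on this log2 of the summed signal p was 0.0431 (adjusted p = 0.194 over 9 marker lists). For oligodendrocyte and microglial markers that p-value was 0.440 and 0.315. Taken instead as the mean log2 level of the same probe sets, the interneuron markers differed by -0.02, learning minus control (exact permutation p = 0.671). At an unadjusted p under 0.05 were 3 interneuron markers, with log2 fold changes of 0.76 for Gad2 and 0.24 for Gad1 at its dimmer probe set and -0.23 for Sst, while the brightest probe sets of Cck and Gad1 had -0.13 and -0.14. Of the oligodendrocyte markers Ugt8 had 0.46 and Mag -0.24, both at an unadjusted p under 0.05, while the brightest probe sets of Mbp and Mobp had 0.01 and -0.07. Of the microglial markers 1, C1qa, had an unadjusted p under 0.05 (-0.40), and Ctss had 0.0034 and Csf1r -0.09. Of the vascular markers 2 had an unadjusted p under 0.05, Slco1a4 with 0.39 at its dimmer probe set and Kdr with -0.40, while the brightest probe sets of Cldn5 and Slco1a4 had -0.05 and -0.11. The adjusted p-values of these 8 genes at those probe sets lay between 0.0666 and 0.224.

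Astrocytes also make N-cadherin. Of 10 astrocyte markers 3 rose, each at a dimmer probe set: Aqp4 by 1.10 (adjusted p = 0.0163), Gja1 by 0.74 (adjusted p = 0.0301) and Slc1a3 by 0.41 (adjusted p = 0.0381). At their brightest probe sets these had -0.05, -0.01 and -0.06, and S100b had -0.06. By probe set 3 of 18 rose, against 2.55% of all tested probe sets. Over all gaps between probe sets of a gene 14.7% were called upward. At an unadjusted p under 0.05, but not called, were Slc1a2 with 0.45 at its brighter tested probe set, where the learning animals all lay above the control animals (adjusted p = 0.0858), and Aldh1l1 with -0.21 (adjusted p = 0.170). Summed over the brightest probe sets, the astrocyte level ran from 14.68 to 14.83 in learning and from 14.72 to 14.91 in control animals (log2 of the summed signal, exact permutation p = 0.146, adjusted p = 0.328 over 9 marker lists). Choroid plexus markers (3 tested of 8 on the array, the others dim, with Ttr at -2.09 called lower, Igfbp2 at -0.70 and Enpp2 at -0.03) ran from 9.04 to 9.41 in learning and from 9.35 to 10.35 in control animals (exact permutation p = 0.00117, adjusted p = 0.0105). Vascular markers, among the cells known to hold T-cadherin, ran from 9.32 to 9.59 in learning and from 9.33 to 9.61 in control animals (exact permutation p = 0.299, adjusted p = 0.473). The part of these cells in the member results was not tested.

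**Figure D5:**
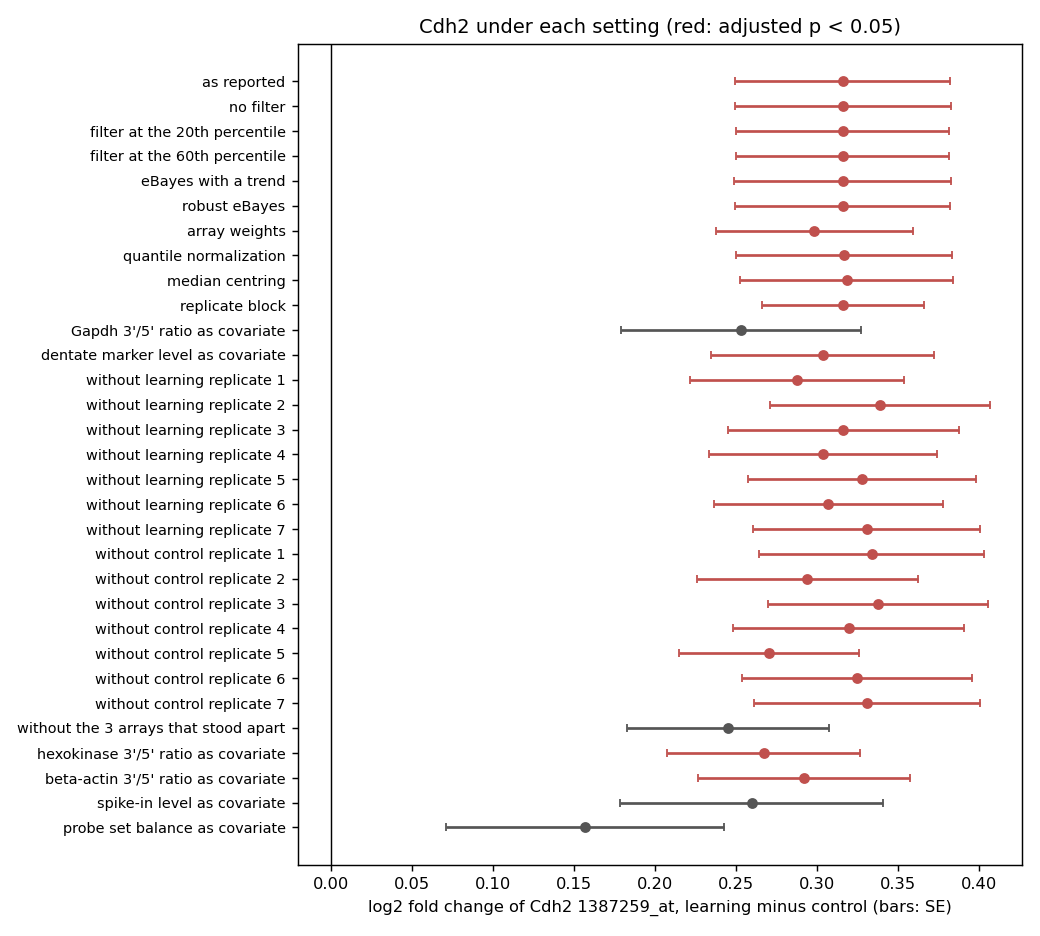
Log2 fold change of Cdh2 1387259_at, learning minus control (horizontal axis), with its SE, as reported and under each of 30 other settings (rows), red where the adjusted p is under 0.05. Values run from 0.16, with the probe set balance as covariate, to 0.34, and 26 of the 30 settings kept the call.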

How the data were processed

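The deposited table holds log2 levels of 15923 probe sets, 1 column per animal, made by the authors using GCRMA (per the submitters' processing notes), which corrects background by probe sequence, normalizes and summarises probes, and it compresses differences near background. Its version and settings are not stated, and log2 was inferred from the range of values. Column medians lay between 5.07 and 5.09, and correlations between arrays between 0.983 and 0.995. Precision rests on the number of arrays. No scan date was used, so no batch was tested.

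Groups and replicate numbers came from the sample titles, which call the samples biological replicates. GEO's platform annotation gave a single gene to 12789 probe sets and more than 1 to 312 (left unnamed), and 12754 symbols were updated by Entrez ID against RefSeq, assembly GRCr8. No build is named for the array, so no coordinates are given. After 57 control and 6346 dim probe sets were left out, limma 3.58.1 (lmFit, eBayes; R 4.3.3) tested 9520, learning minus control without covariates, with Benjamini-Hochberg adjustment over all. Gaps between probe sets of a gene were fitted likewise over 1130 gaps. Values per array were tested by exact permutation, two-sided. The fit was tested on simulated data.

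The members, 5 lists of related genes and 9 marker lists were chosen with earlier results of these data known. Named were all member probe sets, from each list of related genes the called members, the 2 brightest and the 3 with the smallest p, from each marker list the called and the 2 brightest, and per member gene, at its called or else brightest probe set, the 3 most correlated genes. Tcf7l2, Gsk3b, Axin1, Grik4, Prss35 and marker genes given for an unadjusted p under 0.05 were named after their values were seen. So were further probe sets of Apc, Tcf4, Ptprf, Fyn, Rac1 and the called astrocyte markers. Alternatives were 3 other filters, trended or robust moderation, array weights, quantile or median scaling, a replicate block, Gapdh ratio or dentate level (mean of Prox1 and Calb1) in the fit, and single arrays left out. Chosen after seeing the data were leaving out 3 arrays and, as covariate, the hexokinase or actin ratio, the level of 18 spike-in probe sets or the probe set balance (349 genes, members left out, with probe sets at least 2 log2 units apart).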

Additional observations from a re-analysis of the deposited data

Results flagged for a closer look

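In 50 groups of 7 values, a value was taken as standing apart when its distance to the next value, as a share of the group's range, exceeded Dixon's 95% critical value, which chance gives in about 1 of 20 groups, and 8 were found. Control replicate 1 was the highest of its group for Ctnna2 1375968_at (log2 level 9.07, the next at 8.82). Control replicate 2 was the lowest for Ctnnb1 1373067_at (11.85, the next at 11.99). Control replicate 5 was the lowest for Apc 1387837_at (6.17, the next at 6.51), had the highest 3'/5' log2 ratio for Gapdh (0.64) and for hexokinase (2.57, the next at 1.61), the lowest probe set balance (-3.65) and the lowest mean correlation with the other arrays (0.988). Control replicate 6 had the lowest spike-in level (8.73, the next at 8.94). Without control replicate 5 the Cdh2 difference at 1387259_at was 0.27 (limma adjusted p = 0.0203).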

How the results depend on the processing

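Cdh2 1387259_at kept its sign under all 30 alternatives and its call under 26. It was not called without the 3 arrays that stood apart (0.24) or with the Gapdh ratio (0.25), the spike-in level (0.26) or the probe set balance (0.16) as covariate, and it ran from 0.27 to 0.34 with single arrays left out. Called member probe sets numbered 0 under these 4 settings by limma (2, 3, 3 and 0 at an unadjusted p under 0.05), and 2 with the dentate level as covariate, which added Cdh13 1369425_at (-0.22, adjusted p = 0.0317). They numbered 1 or 2 with single arrays left out, 2 without control replicate 6 (that Cdh13 probe set at -0.36). All calls numbered 319, and 158 without a filter, 39 with the Gapdh ratio, 163 with the dentate level, 177 with hexokinase 3'/5' as covariate, 143 with the spike-in level, 0 with the balance (844 at an unadjusted p under 0.05), 105 without the 3 arrays and 163 to 352 with single arrays left out, of these 163 to 188 without learning replicate 3, 4, 6 or 7 or control replicate 1, 2 or 3. Called gaps numbered 199, and 19 with the Gapdh ratio, 0 with the balance (139 at an unadjusted p under 0.05), 114 without the 3 arrays and 141 to 206 with single arrays left out. Some uncalled values changed sign: Cdh13 1375719_s_at with the dentate level (0.034) and within -0.047 to 0.037 with single arrays left out. Ctnnb1 1369733_at did so with the Gapdh ratio (-0.081), the hexokinase ratio (-0.035), the actin ratio (-0.0018) and the balance (-0.13), and within -0.031 to 0.087 with single arrays left out. Its gap to 1373067_at turned without the 3 arrays (0.018), with the spike-in level (0.0020) and within -0.118 to 0.040 with single arrays left out. With the replicate number as a block Cdh2 1387259_at had an adjusted p of 0.0147 and no member call changed. Samples of equal number correlated between -0.16 and 0.13 in their deviations and share only a number. The balance, built from tested probe sets, differed between the groups, so adjusting for it can also remove a group difference. The causes of these changes were not tested.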
